A study of Mus musculus with 9 samples.

Results

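The genes described are 10 that control breakdown of the extracellular matrix and of cell-surface proteins: the matrix metalloproteinases Mmp2, Mmp14 and Mmp15, the ADAM sheddases Adam10 and Adam17, the ADAMTS proteases Adamts1 and Adamts9, and the tissue inhibitors of metalloproteinases Timp1, Timp2 and Timp3. They were found by their symbols among 37104 annotated loci, and each symbol matched 1 row. RNA was sequenced from primary mouse lung endothelial cells (MLEC), selected by the surface protein ICAM2 and grown in culture, from adult C57BL/6J mice of 10 to 12 weeks. Each of 9 libraries was a separate isolation from pooled lungs of several mice, so the libraries and not the mice were the replicates. The 3 libraries called ECtrl carried the Cdh5-Cre transgene with wild-type JNK1 (Mapk8) and JNK2 (Mapk9) genes. The 3 libraries called EfCtrl carried loxP-flanked Jnk1 and Jnk2 without Cre, and the 3 called E3KO carried the flanked genes with Cdh5-Cre, which acts in endothelial cells. All 9 libraries, controls included, came from mice without JNK3 (Mapk10), so the comparisons concern JNK1 and JNK2. Values are FPKM, fragment counts scaled for transcript length and for the mapped fragments of the library, so levels can be compared between genes.

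Matrix metalloproteinases cut collagens and other matrix proteins. Mmp14 and Mmp15 encode membrane-anchored enzymes, whereas Mmp2 encodes a secreted gelatinase whose precursor is activated at the cell surface by the Mmp14 product. Adam10 and Adam17 encode membrane proteases that release the outer parts of receptors, adhesion proteins and growth factors. Adamts1 and Adamts9 encode secreted proteases that cut large proteoglycans such as versican. TIMPs bind the active sites of matrix metalloproteinases, and they differ in which of the other enzymes they inhibit. The Timp2 product has a second role, since with the Mmp14 product it also holds the Mmp2 precursor for activation. In blood vessels this group of genes is known for remodelling of the basement membrane during sprouting and for shedding of endothelial surface proteins.

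The main differences between JNK-deficient and control cells were a higher level of Adamts9 and a lower level of Timp2. Adamts9 passed the test across all genes against ECtrl and against the mean of controls. It did not pass against EfCtrl (limma adjusted p = 0.167), and its call against ECtrl was lost with any single library left out. Timp2 passed the test of single genes (exact permutation p = 0.0119, unadjusted) and not that across all genes. The same was so for Adamts1 and Adam17 (exact permutation p = 0.0238 each). Adamts9, Timp2 and Adam17 did not overlap between E3KO and the 6 controls, as was so for 16.6% of all genes tested. The lack of overlap and the permutation p come from the same values and are not separate evidence. The 250 bases of genomic sequence before the RefSeq start of Adamts9, Timp2 and Adamts1, the 3 genes whose unadjusted limma p was under 0.05 in each comparison of E3KO with controls, are shown for context, read 5′ to 3′ toward the gene on the GRCm38.p6 build (the same mouse genome version as mm10). Adamts9 lies on the minus strand and the window is chr6:92943535-92943784. Timp2 lies on the minus strand with a window of chr11:118355412-118355661, and Adamts1 on the minus strand with chr16:85803114-85803363. The Timp2 window lies inside the gene as annotated by GENCODE and as counted in the files, which both begin at a start further out (118355740), and the Adamts9 window lies inside the locus the files list for that gene. Capitals mark matches on either strand to TGACG, the core of cyclic AMP response elements, and to GGGCGG, the box bound by the factor Sp1.
Adamts9: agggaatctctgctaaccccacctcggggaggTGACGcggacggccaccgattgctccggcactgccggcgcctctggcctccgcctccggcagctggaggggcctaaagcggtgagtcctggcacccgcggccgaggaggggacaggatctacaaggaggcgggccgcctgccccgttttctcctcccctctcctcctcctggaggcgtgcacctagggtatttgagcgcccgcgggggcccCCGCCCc
Timp2: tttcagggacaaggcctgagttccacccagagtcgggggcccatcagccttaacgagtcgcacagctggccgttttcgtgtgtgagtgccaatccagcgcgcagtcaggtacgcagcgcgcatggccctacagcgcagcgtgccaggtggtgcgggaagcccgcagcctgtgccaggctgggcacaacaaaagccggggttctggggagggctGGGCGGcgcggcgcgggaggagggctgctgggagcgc
Adamts1: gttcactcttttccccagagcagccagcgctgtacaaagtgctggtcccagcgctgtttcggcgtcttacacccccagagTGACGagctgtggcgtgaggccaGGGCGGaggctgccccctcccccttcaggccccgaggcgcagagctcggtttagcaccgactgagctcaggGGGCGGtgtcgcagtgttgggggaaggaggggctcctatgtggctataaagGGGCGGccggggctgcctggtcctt

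RefSeq promoter windows were matched for 9 of the 10 genes, all except Mmp2. The AP-1 site TGACTCA, a sequence through which the JNK substrate c-Jun is known to act, was in 0 of the 9 windows and in 4.46% of 32534 mouse windows of the same length. The full cyclic AMP response element TGACGTCA was in 0 of 9 and in 1.56% of all windows. Its shorter core TGACG, which every full element contains, was in 4 of 9 (Adam10, Adamts1, Adamts9 and Timp1) and in 17.9% of all windows. GGGCGG was in 9 of 9 and in 33.0% of all windows, and the 9 windows held between 6 and 29 CpG dinucleotides against a median of 6 over all windows. These matches describe letters in short windows, and binding was not measured.

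The RNA levels of the targeted genes were looked at first. FPKM is given per gene and does not show whether the flanked part was lost, so the deletion itself was not measured here. The paper reports reduced JNK protein by immunoblot in lung endothelial cells of E3KO mice. Mapk8 was at 17.0, 15.0 and 17.9 FPKM in the ECtrl libraries and 16.7, 14.05 and 15.1 in the EfCtrl libraries, and at 20.7, 8.77 and 4.65 in E3KO replicates 1, 2 and 3. Mapk9 was between 42.7 and 50.9 FPKM in the controls and at 27.6, 35.1 and 20.7 in E3KO. Mapk10 was at most 0.270 FPKM in every library. The library labelled E3KO replicate 1 therefore had the highest Mapk8 level of the 9, so the RNA level of that gene did not bear out its label. Its Mapk9 level was below every control. The same library had 96.4% of its summed FPKM in 10 symbols, against 40.9% to 56.8% in the others, so values without it are also given. With the symbols of highest mean level left out, its sum was 420517.4 FPKM, inside the range of the other libraries (388536.5 to 433172.1). The endothelial genes Pecam1 (643 to 798 FPKM) and Cdh5 (613 to 943 FPKM) were high in all 9 libraries, and read depth is unknown from FPKM.

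Differences were tested with limma on log2(FPKM + 1) in a single fit of the 9 libraries, with Benjamini-Hochberg adjustment over the 10605 genes that reached a mean of 2 FPKM in at least 1 group. All 10 genes were tested, and 8 of them had a mean of 2 FPKM or more in each group, whereas Adamts9 (ECtrl mean of 1.71) and Mmp15 (E3KO mean of 1.49) passed through their higher groups. Against ECtrl, 1 of 10 (Adamts9, higher in E3KO) had an adjusted p under 0.05, where 2.25% of all genes tested did and 0.82% were called higher. Against EfCtrl, the same test called 0 of 10, with 0.952% of all genes called. Between EfCtrl and ECtrl, 0 of 10 were called and 0.0% of all genes, with an unadjusted p under 0.05 for 195 of the 10605 genes (1.84%) and 0 of the 10. Against the mean of both control groups, 1 of 10 (Adamts9) was called, higher in E3KO, beside 4.8% of all genes in either direction and 1.54% called higher. Of the 509 genes called in that comparison, 163 were higher and 346 lower, and the split was 209 to 268 with each library centred on its median and 214 to 232 with quantile normalisation. An unadjusted p under 0.05 was reached by 3 of 10 (Adamts9, Adamts1 and Timp2) in each of the comparisons of E3KO with ECtrl, with EfCtrl and with their mean, where it was reached by 20.1%, 17.7% and 23.8% of all genes.

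The comparisons of E3KO with ECtrl, EfCtrl and their mean share libraries and are not independent of each other. Over the 10 genes the median log2 fold change against the mean of controls was -0.07, beside -0.08 for all genes tested. As a second test of each gene, the 3 E3KO libraries were set against the 6 control libraries by an exact two-sided permutation test on log2(FPKM + 0.1), with 84 possible splits and 0.0119 as the smallest p that it can give. The p-values of these 10 tests are unadjusted. With a library left out there are fewer splits, and the smallest p is then 0.0179 without a control library and 0.0357 without an E3KO library. A test of 3 libraries against 3 cannot reach 0.05. Of the 10 genes, 3 did not overlap between E3KO and the 6 controls (Adamts9 above, Timp2 and Adam17 below), beside 16.6% of all genes tested, of which 5.18% were above and 11.5% below. Against the ECtrl libraries alone the same 3 genes did not overlap (22.9% of all genes, 6.99% above and 15.9% below). Against the EfCtrl libraries alone 5 did not, with Adamts1 also above and Adam10 also below (29.2% of all genes, 9.37% above and 19.8% below).

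**Figure D1:**
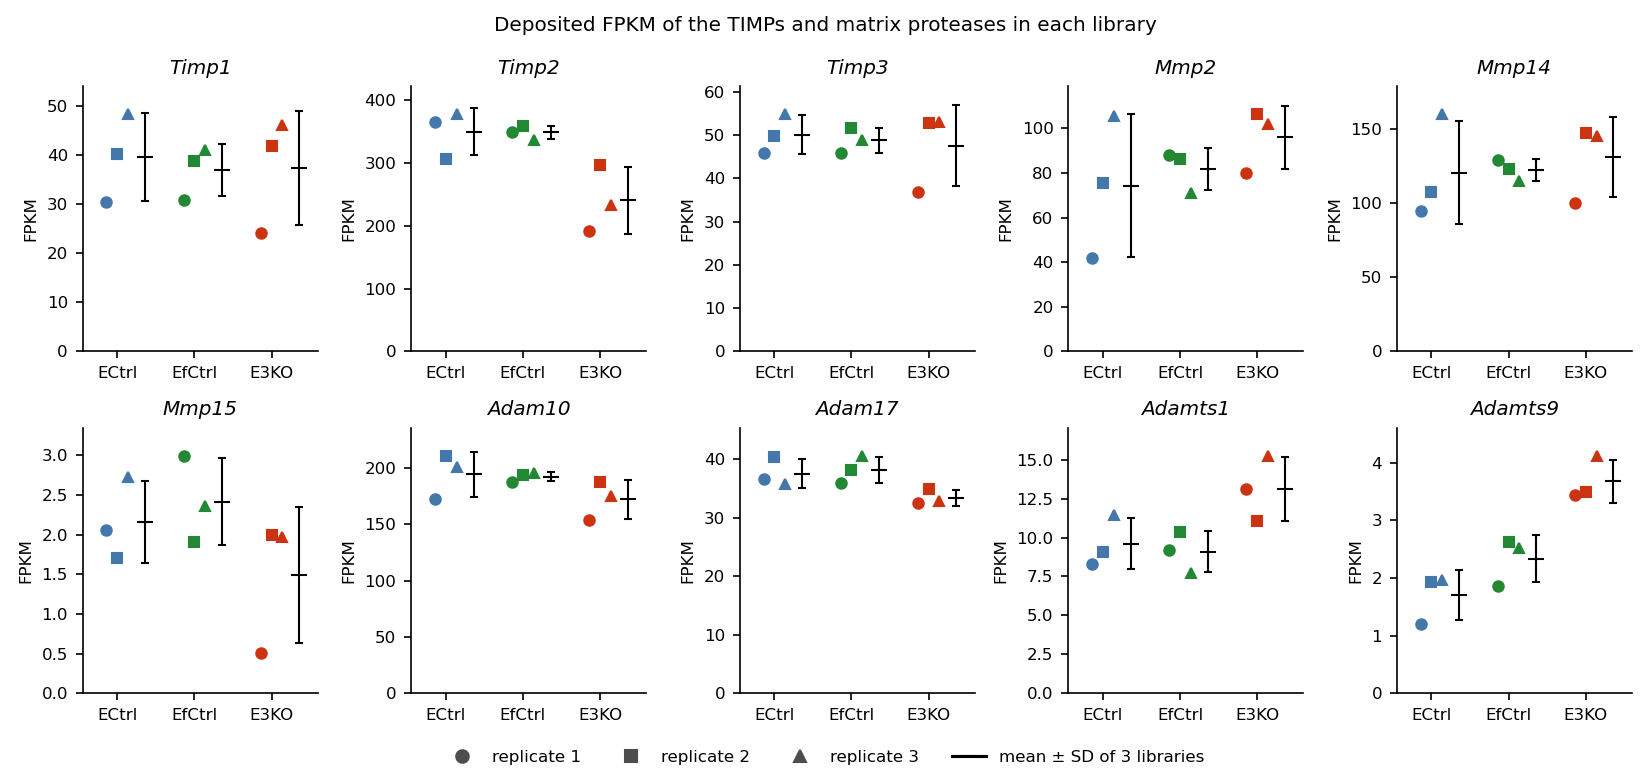
FPKM of the 10 genes (vertical axes, linear from 0) in the 3 libraries of ECtrl, EfCtrl and E3KO; symbols give the replicate, and the black mark with its bar gives the mean and SD of 3 libraries. Adamts9 lies above all 6 controls in E3KO, Timp2 and Adam17 lie below them, and E3KO replicate 1 is the lowest of 9 libraries in 6 of the 10 genes.

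Among the inhibitors, Timp2 was the gene with the lower level in E3KO. Timp2 was at 365, 307 and 377 FPKM in ECtrl and at 350, 359 and 337 in EfCtrl. It was at 191, 297 and 233 FPKM in E3KO replicates 1, 2 and 3. All 3 E3KO libraries were below all 6 controls, with E3KO replicate 2 only just under ECtrl replicate 2. The mean was 349 ± 24.6 FPKM (SD, n = 6) in the controls and 240 ± 53.4 (SD, n = 3) in E3KO. The exact permutation p was 0.0119, the smallest it can give, whereas the limma adjusted p against the mean of controls was 0.0687 for a log2 fold change of -0.56 (SE 0.144, 95% interval -0.89 to -0.23). The values against ECtrl and EfCtrl were -0.56 each, with limma adjusted p of 0.120 and 0.149, so the difference did not pass the threshold across all genes. Without E3KO replicate 1 the log2 fold change was -0.40 with a limma adjusted p of 0.120. The adjusted p fell under the threshold without E3KO replicate 2 (0.0404).

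The other inhibitors gave no such separation. Timp1, which encodes a soluble secreted inhibitor, was at 30.5, 40.2 and 48.3 FPKM in ECtrl, 31.0, 38.9 and 41.0 in EfCtrl and 24.2, 41.9 and 46.2 in E3KO. Timp3, whose product stays bound in the matrix and is the TIMP known to inhibit ADAM17 and several ADAMTS enzymes, was at 45.8, 49.7 and 54.8 FPKM in ECtrl, 45.9, 51.6 and 48.9 in EfCtrl and 36.8, 52.8 and 53.1 in E3KO. For both genes E3KO replicate 1 was the lowest of the 9 libraries and the other E3KO libraries lay inside the range of the controls. The locus listed for Timp1 (mm10, chromosome X, 20797814 to 20921004) is much longer than the annotated gene (20870166 to 20874735). It covers 7 other genes, Araf and Syn1 among them. In the annotation 1 of these lies over Timp1 itself, and 0 overlap its exons. The limma log2 fold change against the mean of controls was -0.07 for Timp1 (95% interval -0.59 to 0.46, adjusted p = 0.880) and -0.07 for Timp3 (95% interval -0.39 to 0.24, adjusted p = 0.770). Without E3KO replicate 1 it was 0.21 for Timp1 and 0.10 for Timp3, so the sign of each rested on that library. The exons of Timp3 overlap those of Syn3 in the annotation, and strand is not stated for the counting, so reads of the pair may not be told apart.

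The summed level of the 3 TIMPs lay between 397 and 480 FPKM in control libraries and between 252 and 392 in E3KO, with no overlap. Timp2 made up 77.4% to 82.7% of that sum in the controls and 70.1% to 75.8% in E3KO. The summed level of the 7 proteases overlapped, lying between 357 and 518 FPKM in control libraries and between 383 and 493 in E3KO.

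Among the matrix metalloproteinases the levels overlapped between the groups. Mmp2 was at 41.7, 75.4 and 106 FPKM in ECtrl, 88.2, 86.2 and 70.9 in EfCtrl and 80.0, 106 and 102 in E3KO. ECtrl replicate 1 was by far the lowest, and the ECtrl libraries alone spanned nearly the whole range of the 9. The log2 fold change against the mean of controls was 0.34 (95% interval -0.26 to 0.94, limma adjusted p = 0.455). Without ECtrl replicate 1 it was 0.16, and 0.09 against ECtrl in place of 0.45. The exact permutation p was 0.286, and 0.214 without E3KO replicate 1, where the limma log2 fold change was 0.46.

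Mmp14 was at 94.7, 107 and 160 FPKM in ECtrl, 129, 123 and 115 in EfCtrl and 99.98, 148 and 146 in E3KO. The highest and the lowest of the 9 libraries were both in ECtrl. The log2 fold change was 0.11 against the mean of controls (95% interval -0.33 to 0.54, limma adjusted p = 0.758), and the exact permutation p was 0.619. Against ECtrl it was 0.13, and -0.02 without ECtrl replicate 1. With single libraries left out the value against the mean of controls ranged from 0.0091, without E3KO replicate 2, to 0.29, without E3KO replicate 1, and it was 0.019 without E3KO replicate 3, 0.028 without ECtrl replicate 1 and 0.22 without ECtrl replicate 3.

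Mmp15 was a gene of low level, at 2.06, 1.71 and 2.72 FPKM in ECtrl and 2.98, 1.90 and 2.36 in EfCtrl. In E3KO it was at 0.510, 2.00 and 1.97 FPKM. The E3KO libraries overlapped the controls except for E3KO replicate 1, which lay far below all others. The log2 fold change against the mean of controls was -0.46 (95% interval -1.002 to 0.09, limma adjusted p = 0.282) and -0.13 without E3KO replicate 1. The exact permutation p was 0.0952.

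The pairing of Mmp2 and Mmp14 with Timp2 was examined by ratios within each library, which do not depend on how a library was scaled. These ratios were chosen after the values had been seen and are given as a description, with no test. The Mmp2 to Timp2 ratio was 0.114 to 0.280 in the 6 controls, with ECtrl replicate 1 lowest, and 0.418, 0.357 and 0.438 in the 3 E3KO libraries. The Mmp14 to Timp2 ratio was 0.260 to 0.424 in the controls and 0.522, 0.497 and 0.626 in E3KO. The ratio of the 3 TIMPs to the 7 proteases was 0.890 to 1.24 in the controls and 0.659, 0.795 and 0.696 in E3KO. Each of the 3 ratios separated the E3KO libraries from all 6 controls, E3KO replicate 1 included. Timp2, the gene with the lower level in E3KO, enters all 3. The ratios compare RNA levels, and inhibition was not measured.

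**Figure D2:**
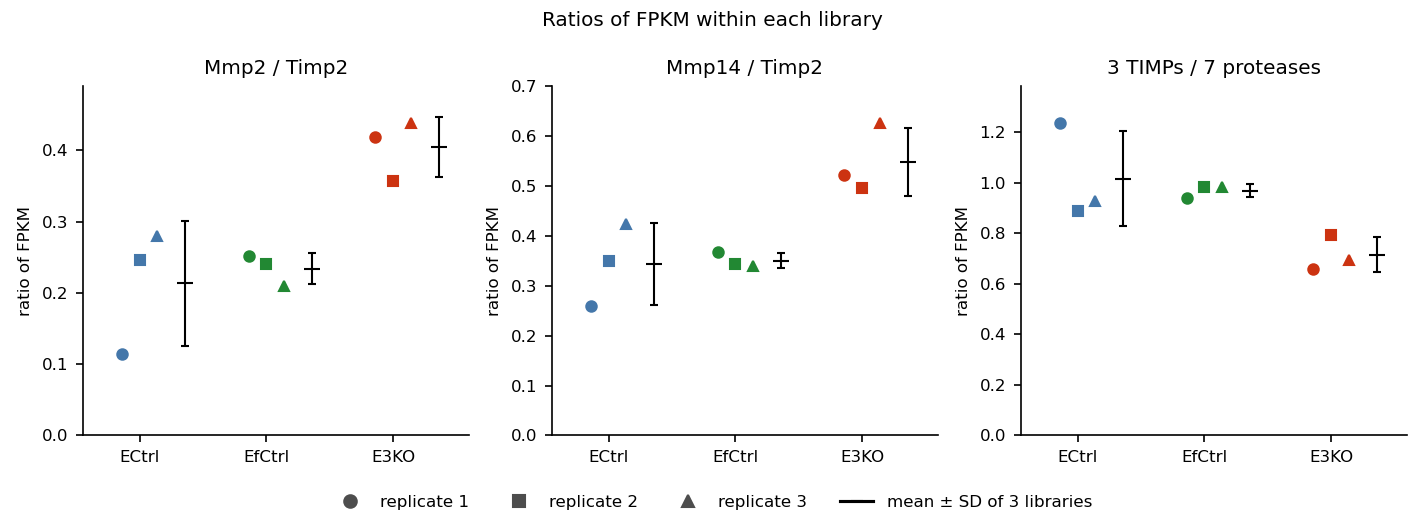
Ratios of FPKM (vertical axes, linear from 0) within each library of ECtrl, EfCtrl and E3KO, for Mmp2 to Timp2, Mmp14 to Timp2 and the sum of 3 TIMPs to the sum of 7 proteases; symbols give the replicate and the black mark with its bar the mean and SD of 3 libraries. The E3KO libraries lie above all controls in the first 2 panels (0.357 to 0.438 and 0.497 to 0.626) and below them in the last (0.659 to 0.795).

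The sheddases were at high and even levels. Adam10, which encodes the main sheddase of Notch receptors and of VE-cadherin, was at 172, 210 and 201 FPKM in ECtrl, 188, 193 and 196 in EfCtrl and 154, 188 and 176 in E3KO. The E3KO libraries were below all EfCtrl libraries, by a narrow margin for E3KO replicate 2, and overlapped ECtrl. The log2 fold change against the mean of controls was -0.17 (95% interval -0.41 to 0.07, limma adjusted p = 0.351), with an exact permutation p of 0.0714. Without E3KO replicate 1 it was -0.09, with a permutation p of 0.25.

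Adam17, which encodes the enzyme that releases TNF, was at 36.7, 40.4 and 35.8 FPKM in ECtrl and at 35.9, 38.2 and 40.5 in EfCtrl. In E3KO it was at 32.5, 35.0 and 32.8 FPKM. All 3 E3KO libraries were below all 6 controls, by a small margin. The mean was 37.9 ± 2.14 FPKM (SD, n = 6) in the controls and 33.4 ± 1.35 (SD, n = 3) in E3KO, with an exact permutation p of 0.0238. The limma log2 fold change was -0.17 (95% interval -0.37 to 0.02, adjusted p = 0.262), and with each library centred on its median the permutation p was 0.143. The permutation p was 0.0714 without E3KO replicate 1 and also without E3KO replicate 3, where the smallest p it can give is 0.0357. In both cases the remaining E3KO libraries stayed below all 6 controls, so these p also reflect the fewer splits. The annotation places an exon of Iah1 over an exon of Adam17.

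The ADAMTS genes were both higher on average in E3KO. Adamts9 was the gene that passed the test across all genes, against ECtrl and against the mean of controls. Adamts9 was at 1.21, 1.94 and 1.97 FPKM in ECtrl and at 1.87, 2.62 and 2.52 in EfCtrl. It was at 3.44, 3.49 and 4.11 FPKM in E3KO. All 3 E3KO libraries were above all 6 controls, and ECtrl replicate 1 was the lowest. The mean was 2.02 ± 0.510 FPKM (SD, n = 6) in the controls and 3.68 ± 0.372 (SD, n = 3) in E3KO.

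The limma log2 fold change of Adamts9 was 0.80 against ECtrl (SE 0.155, 95% interval 0.45 to 1.16, adjusted p = 0.0423). Against EfCtrl it was 0.49 (95% interval 0.14 to 0.85), which did not pass, with a limma adjusted p of 0.167. EfCtrl and ECtrl differed by 0.31 (95% interval -0.05 to 0.66), a difference that did not pass either (limma adjusted p = 1.0). Against the mean of controls it was 0.65 (SE 0.134, adjusted p = 0.0367), and the exact permutation p was 0.0119, the smallest it can give. At these low levels the pseudocount of 1 understates the change, and with 0.1 the log2 fold change against the mean of controls was 0.87 (limma adjusted p = 0.0452).

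The call of Adamts9 was near the threshold. Against ECtrl its limma adjusted p was 0.0554 to 0.136 with each library left out in turn, so it was called in 0 of 9 such fits. Against the mean of controls it stayed under 0.05 in 3 of 9, those without an ECtrl library, and was 0.0594, 0.0755 and 0.127 without E3KO replicate 1, 2 and 3 and 0.0855, 0.0643 and 0.0818 without EfCtrl replicate 1, 2 and 3. The log2 fold change was between 0.58 and 0.68 in these 9 fits. The exact permutation p was 0.0179 or 0.0357 in all 9. The locus listed for Adamts9 (mm10, chromosome 6, 92772699 to 93272889) extends beyond the annotated gene, which ends at 92943492, and covers 2 other protein-coding genes whose exons overlap it (A730049H05Rik and Gm15737).

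Adamts1 was at 8.27, 9.10 and 11.5 FPKM in ECtrl, 9.19, 10.4 and 7.72 in EfCtrl and 13.1, 11.1 and 15.2 in E3KO. The E3KO libraries were above all EfCtrl libraries, while ECtrl replicate 3 was above E3KO replicate 2. The mean was 9.35 ± 1.37 FPKM (SD, n = 6) in the controls and 13.1 ± 2.06 (SD, n = 3) in E3KO, with an exact permutation p of 0.0238. The limma log2 fold change was 0.41 against ECtrl and 0.48 against EfCtrl, with adjusted p of 0.220 and 0.197. Against the mean of controls it was 0.45 (95% interval 0.12 to 0.78, limma adjusted p = 0.117). The permutation p was 0.0714 without E3KO replicate 1 and 0.107 without E3KO replicate 3, and 0.0536 without ECtrl replicate 1, ECtrl replicate 2, EfCtrl replicate 1 or EfCtrl replicate 3. These fits have fewer splits, with a smallest p of 0.0357 without an E3KO library and 0.0179 without a control library.

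**Figure D3:**
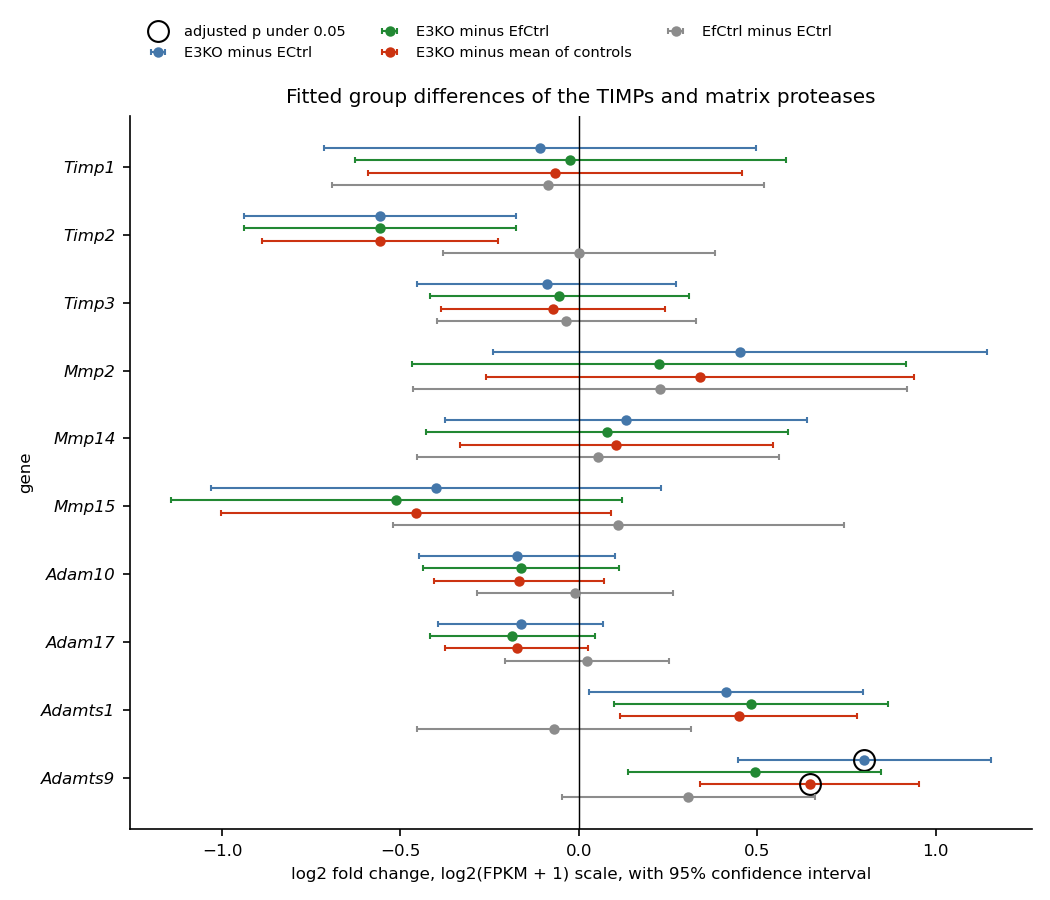
Fitted log2 fold changes on the log2(FPKM + 1) scale (horizontal axis, with 95% confidence intervals) of the 10 genes for E3KO against ECtrl, against EfCtrl and against the mean of both, and for EfCtrl against ECtrl; black rings mark adjusted p under 0.05. Rings stand at Adamts9 only, at 0.80 against ECtrl and 0.65 against the mean of controls, and the intervals of Timp2 and Adamts1 lie to one side of 0 in the 3 comparisons with E3KO.

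**Figure D4:**
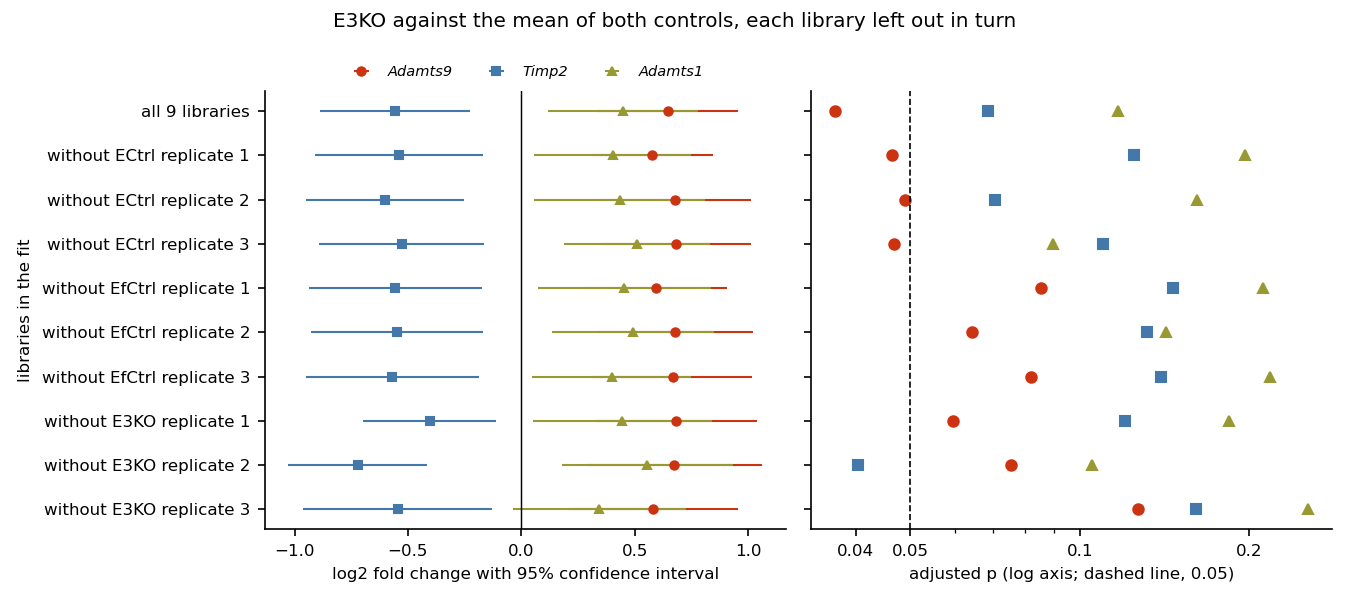
Log2 fold change with 95% confidence interval (left) and limma adjusted p (right, log axis) of Adamts9, Timp2 and Adamts1 for E3KO against the mean of controls, with all 9 libraries and with each left out in turn. Adamts9 stays left of the dashed line at 0.05 without each ECtrl library, and Timp2 crosses to it without E3KO replicate 2 (0.0404).

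The order of the levels in the controls ran from Timp2 through Adam10, Mmp14, Mmp2 and Timp3 to Timp1 and Adam17, then Adamts1, and last Mmp15 and Adamts9. Neighbours in this order kept it in all 6 control libraries, except Mmp2 over Timp3 (5 of 6), Timp1 over Adam17 (3 of 6) and Mmp15 over Adamts9 (3 of 6). Timp1 and Adam17 differed by 0.00 ± 0.25 (log2 ratio, mean and SD, n = 6), so their order was not set. Mmp15 and Adamts9 differed by 0.20 ± 0.51 in the same unit (n = 6), within their spread. In E3KO Adamts9 was above Mmp15 in each of the 3 libraries, with a mean log2 ratio of Mmp15 to Adamts9 of -1.54. The gap was widest in E3KO replicate 1 (Mmp15 at 0.510 and Adamts9 at 3.44 FPKM). It was smaller in E3KO replicate 2 (2.00 and 3.49) and E3KO replicate 3 (1.97 and 4.11). The step from Timp2 to Adam10 was 0.85 ± 0.18 in the controls and 0.46 on average in E3KO.

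Levels of the 10 genes also varied between single libraries of a group. E3KO replicate 1 was the lowest of the 9 libraries for 6 of the 10 genes, as it was for 39.5% of all genes tested. ECtrl replicate 1 was the lowest of the 6 controls for 6 of the 10 genes, beside 22.1% of all genes tested. For Adamts9, E3KO replicates 1 and 2 were close together, at 3.44 and 3.49 FPKM.

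Genes of the same families were counted from lists of relatives. Of 20 other matrix metalloproteinases, 12 were under 1 FPKM in all 9 libraries, 6 were tested and 1 was called, Mmp28, higher in each comparison of E3KO with controls. Of 17 other ADAMTS genes, 10 were under 1 FPKM in all libraries, 5 were tested, and 2 were called against ECtrl and against the mean of controls, Adamts5 higher and Adamts15 lower, of which Adamts15 was also called against EfCtrl. Of 11 other ADAM genes 5 were tested and limma called 0, with 0 at an unadjusted p under 0.05. Of all genes tested 2.25% were called against ECtrl, 0.952% against EfCtrl and 4.8% against the mean of controls. The median log2 fold change of the tested genes against the mean of controls was 0.16 for the other matrix metalloproteinases, -0.10 for the ADAMTS genes and -0.10 for the ADAM genes, beside -0.08 for all genes.

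Mmp28 encodes epilysin, a secreted metalloproteinase of epithelia and wounds. It was at 3.81, 6.16 and 4.35 FPKM in ECtrl, 5.002, 5.38 and 5.45 in EfCtrl and 15.9, 11.7 and 12.4 in E3KO. All E3KO libraries were above all controls. Mmp28, Adamts5 and Adamts15 are described because they were called, so their separation from the controls follows in part from that choice. Of all genes tested, 16.6% did not overlap between E3KO and the 6 controls. It passed against ECtrl (1.32 on the log2 scale, limma adjusted p = 0.0188) and against EfCtrl (1.18, limma adjusted p = 0.0326). The gene 1700020L24Rik overlaps an exon of Mmp28.

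Adamts5 encodes an aggrecanase that also cuts versican, as the products of Adamts1 and Adamts9 do. It was at 7.25, 9.54 and 11.1 FPKM in ECtrl, 8.61, 11.5 and 8.95 in EfCtrl and 16.4, 23.3 and 27.3 in E3KO. The E3KO libraries were above all controls. Its log2 fold change was 1.17 against ECtrl (limma adjusted p = 0.0392), and 1.11 against EfCtrl, where the limma adjusted p of 0.0581 did not pass.

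Adamts15 encodes another protease of this versican-cutting group. It was at 4.02, 2.47 and 3.51 FPKM in ECtrl and at 3.00, 3.38 and 4.84 in EfCtrl. In E3KO it was at 0.498, 1.03 and 0.920 FPKM, below all controls. In log2 terms the change was -1.25 against ECtrl and -1.38 against EfCtrl, with limma adjusted p of 0.0280 and 0.0326. Adamts15 reached the level needed for testing only through the controls (E3KO mean of 0.817 FPKM), and with no filter on level these p were 0.056 and 0.0551. Within a library the Adamts5 to Adamts15 ratio, a measure chosen after the values had been seen, was 1.80 to 3.87 in the controls and 33.0, 22.6 and 29.7 in E3KO. Without E3KO replicate 3, 0 of the 3 genes Mmp28, Adamts5 and Adamts15 were called against the mean of controls, with limma adjusted p of 0.0672, 0.0843 and 0.0672 in that order. Adamts5 was also not called in that comparison without E3KO replicate 2 (0.0562), EfCtrl replicate 1 (0.0570) or EfCtrl replicate 3 (0.0607). Against EfCtrl alone, the calls of Mmp28 and Adamts15 were lost without any EfCtrl or any E3KO library (limma adjusted p of 0.051 to 0.162). Against ECtrl alone, Mmp28 lost its call without ECtrl replicate 1, EfCtrl replicate 3 or E3KO replicate 3 (up to 0.0861). In that comparison Adamts15 kept its call only without ECtrl replicate 2 or E3KO replicate 1, and Adamts5 only without E3KO replicate 1.

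**Figure D5:**
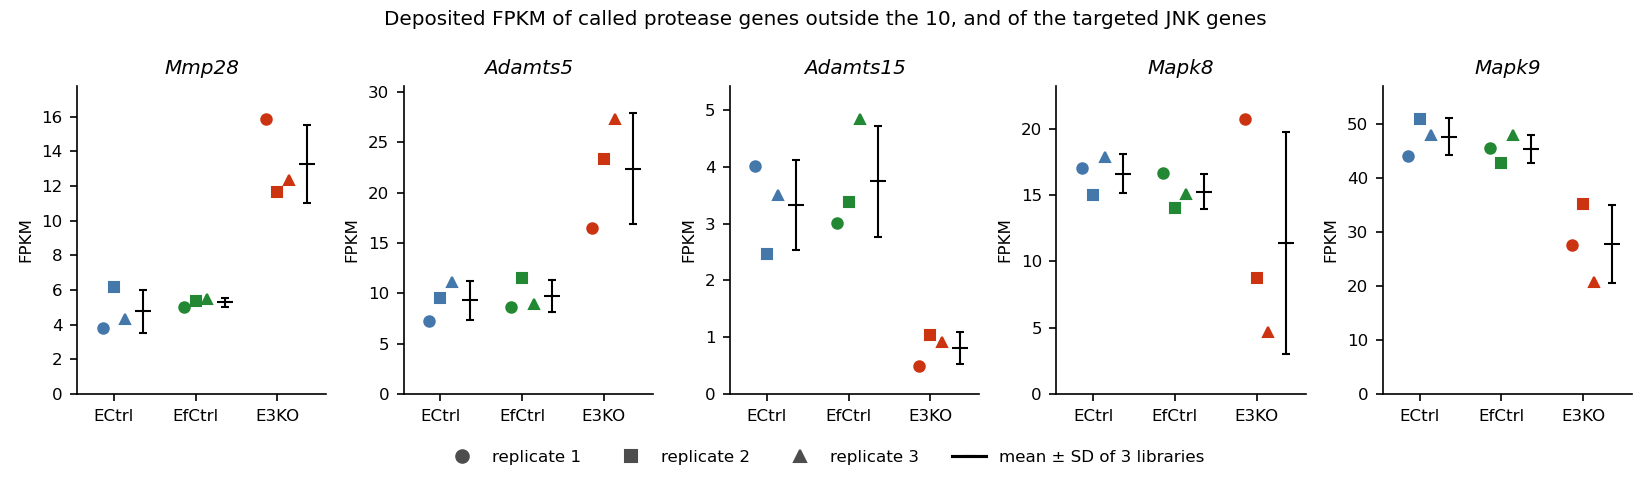
FPKM (vertical axes, linear from 0) of Mmp28, Adamts5 and Adamts15, and of the targeted genes Mapk8 and Mapk9, in the 3 libraries of ECtrl, EfCtrl and E3KO; symbols give the replicate, and the black mark with its bar the mean and SD of 3 libraries. The 3 protease genes, shown because they were called in these data, separate E3KO from all controls, as 16.6% of all genes tested do. Mapk8 in E3KO replicate 1 (20.7) is above every other library.

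Adamts5 was the most abundant of the other ADAMTS genes. Mmp12, the macrophage elastase and the most abundant other matrix metalloproteinase, ranged from 9.97 to 90.5 FPKM in control libraries and from 56.3 to 110 in E3KO (log2 fold change of 0.82 against the mean of controls, limma adjusted p = 0.346). Adam9, the most abundant other ADAM gene, ranged from 47.4 to 78.8 FPKM in control libraries and from 74.6 to 100.3 in E3KO (0.40, limma adjusted p = 0.215). Mmp12 and Adam9 overlapped between the groups.

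The remaining lists covered inhibitors, the maturation of these proteases and their substrates. Reck, a membrane-anchored inhibitor of metalloproteinases, ranged from 3.78 to 5.27 FPKM in control libraries and from 3.26 to 4.97 in E3KO (limma adjusted p of 0.539 against the mean of controls), and Timp4 was under 1 FPKM in all libraries. Of 12 genes for maturation and trafficking (the proprotein convertases that remove pro-domains, the iRhoms that carry ADAM17 and the tetraspanins that carry ADAM10), 9 were tested and limma called 0 in any comparison (2 at an unadjusted p under 0.05 against the mean of controls, beside 23.8% of all genes), with a median log2 fold change of -0.22 against the mean of controls. The most abundant, Pcsk6, ranged from 155 to 197 FPKM in control libraries and from 134 to 157 in E3KO (limma adjusted p = 0.240). Of 14 genes for shed or cleaved substrates, 12 were tested and limma called 0 (2 at an unadjusted p under 0.05, beside the same 23.8%), with a median of 0.19, and the most abundant, the fibronectin gene Fn1, ranged from 954 to 1900 FPKM in control libraries and from 1337 to 1935 in E3KO (limma adjusted p = 0.647).

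Several of these genes are also expressed by other cells of the lung, so markers were measured beside them. The endothelial list had sums from 2949 to 3619 FPKM in control libraries and from 3545 to 3945 in E3KO, with 9 of its 10 genes found, and against the mean of controls Cldn5 was called lower and Emcn higher. The lymphatic endothelial list, with all 7 genes tested, had sums from 2467 to 3341 FPKM in control libraries and from 2275 to 2566 in E3KO. Prox1 and Reln were called lower in each comparison of E3KO with controls and Ccl21a against the mean. Ccl21a reached the level needed for testing only through the controls (E3KO mean of 0.773 FPKM). Lyve1, Flt4, Pdpn and Mmrn1 were not called, with log2 fold changes of -0.07, -0.12, -0.29 and -0.58 against the mean. Of all genes tested, 2.25% were called against ECtrl, 0.952% against EfCtrl and 4.8% against the mean of controls. These marker genes were named after their values had been seen.

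Fibroblasts and mural cells are among the cells that commonly express Mmp2 and TIMPs. Their markers had sums from 13.2 to 81.8 FPKM in control libraries and from 12.4 to 26.4 in E3KO. The E3KO sums overlapped ECtrl (13.2 to 48.4) and lay below all of EfCtrl (27.9 to 81.8). Of the 12 markers, 6 were under 1 FPKM in all libraries, and limma called 0 of 6 tested genes. An unadjusted p under 0.05 was reached by 3 against the mean of controls (23.8% of all genes) and by 4 against EfCtrl (17.7%). ECtrl replicate 1, the library with the lowest Mmp2 level, also had the lowest sum of the controls. Other libraries went the other way. E3KO replicate 1 had a lower sum (12.4 FPKM) with Mmp2 at 80.0 FPKM. EfCtrl replicate 3 had the highest sum (81.8 FPKM) with the lowest Mmp2 level of EfCtrl (70.9 FPKM). Leukocyte markers summed to 72.1 to 251 FPKM in the controls, lowest in ECtrl replicate 1, and to 197 to 312 in E3KO. The E3KO sums lay above all of ECtrl (72.1 to 152) and overlapped EfCtrl (157 to 251). Of these markers, limma called 0 of 4 tested. An unadjusted p under 0.05 was reached by 3 against the mean of controls (23.8% of all genes), 3 against ECtrl (20.1%) and 0 against EfCtrl (17.7%). Mmp12 was lowest in ECtrl replicate 1 as well. Epithelial markers summed to 3.15 to 6.16 FPKM in the controls and to 51.5, 3.22 and 4.71 in E3KO replicates 1, 2 and 3, and mesothelial markers to at most 3.04 FPKM in any library. Of the epithelial markers limma called 0 of 2 tested (0 at an unadjusted p under 0.05), and 0 mesothelial markers were high enough to be tested. The part of other cell types in the levels of the proteases and inhibitors was not tested, and in such bulk RNA a smaller number of cells of a type and less RNA per cell cannot be told apart.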

How the data were processed

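The authors isolated endothelial cells from mouse lung and sequenced RNA as paired reads. They aligned the reads with TopHat2 to mm10, estimated transcript levels with Cufflinks (version 1.0.3 in the submitters' processing notes) and merged and compared them with Cuffmerge and Cuffdiff. The deposited values are FPKM, and strand in the counting is not given in the sources used here. The 3 deposited tables also hold the authors' pairwise fold changes, p and q values and group values, which were not used. Read depth is not part of FPKM, so no counting interval was given.

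Genes with a mean of at least 2 FPKM in 1 or more groups, and with a symbol naming 1 locus, were fitted as log2(FPKM + 1) over 9 libraries with limma 3.58.1 in R 4.3.3 (10605 genes, adjusted p threshold of 0.05, Benjamini-Hochberg). The script was tested on simulated data. Single genes were tested by exact permutation with a pseudocount of 0.1 in Python 3.11.15. Alternatives were another pseudocount, filter, scaling, moderation, a replicate block and leaving out each library. The labels do not tie libraries of different groups to shared mice.

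The members and gene lists were chosen with earlier results of these data known. Genes named beyond the 10 were the targeted JNK genes and, per related list, those called in any comparison with E3KO plus the one of highest mean FPKM. Timp4 and the marker genes were named outside this rule. Promoter sequences are from RefSeq, and gene positions from GENCODE on mm10.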

Additional observations from a re-analysis of the deposited data

Results flagged for a closer look

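Mmp12 stood out in a single control library. Its level in ECtrl replicate 1 was 9.97 FPKM, against 42.6 and 56.1 in the other ECtrl libraries and 53.2 to 90.5 in EfCtrl, and on the log2(FPKM + 1) scale its gap to the nearest of the 6 control libraries was above Dixon's critical value for a group of that size, which it was not on the linear scale. This check was made on 25 genes, and chance alone marks about 1 in 20 groups. The leukocyte marker sum was also lowest in that library (72.1 FPKM), and its part in the level of Mmp12 was not tested.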

How the results depend on the processing

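Adamts9 kept its direction in every comparison of E3KO with controls under all alternatives run, and Timp2 and Adamts1 did too. With no filter on level, 95 genes were called against ECtrl and 17 against EfCtrl, and calls were lost for Adamts5 against ECtrl (limma adjusted p = 0.0704), Adamts15 against ECtrl (0.056) and EfCtrl (0.0551) and Mmp28 against EfCtrl (0.0513). With the replicate number as a replicate block, 1 gene was called against ECtrl, 1 against EfCtrl and 202 against the mean of controls. The numbers did not mark shared mice, and same-numbered libraries deviated together little (correlations of -0.04 to 0.12). Not every library correlated best with its own number. The highest correlations were nevertheless of same-numbered control pairs, ECtrl with EfCtrl replicate 1 (0.123) and replicate 2 (0.119). Among pairs of different number the highest was 0.0785, and a link of the libraries by number was not tested further. Under that block Adamts9 had a limma adjusted p of 0.0564 against ECtrl and 0.0444 against the mean of controls, and Mmp28, Adamts5 and Adamts15 lost their calls against ECtrl (0.0556, 0.0532 and 0.061), as did Mmp28 and Adamts15 against EfCtrl (0.0927 and 0.0764). Without E3KO replicate 1 and with median centring together, a choice made after seeing the data, 11 genes were called against EfCtrl and 329 against the mean of controls. Leaving out each library in turn gave 0 to 215 calls against ECtrl (239 with all 9), 1 to 218 against EfCtrl (101), 9 to 408 against the mean of controls (509) and 0 to 4 between EfCtrl and ECtrl (0). The lowest count of each comparison with E3KO came without E3KO replicate 3, and the cause was not tested.

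The call of Adamts9 against the mean of controls was also lost with a mean-variance trend (limma adjusted p = 0.0793), with no filter (0.0553) and with the added alternative (0.0575), and against ECtrl it was called in 4 of 8 alternatives (0.0312 to 0.0821). For Timp2 against the mean of controls the log2 fold change ran from -0.56 to -0.34, the latter with the added alternative. Its limma adjusted p ran from 0.0379, with quantile normalisation, to 0.134, and over the fits with a library left out from 0.0404 to 0.161.

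Some small log2 fold changes changed sign, and the cause was not tested. With median centring Timp1 was at 0.047 against EfCtrl, 0.0048 against the mean of controls and 0.0021 in the permutation test's difference, Timp3 at 0.015 against EfCtrl and Fn1 at 0.00093 against EfCtrl. With the added alternative Timp1 was at 0.23 against ECtrl, 0.31 against EfCtrl and 0.27 against the mean, Timp3 at 0.15, 0.17 and 0.16, Reck at 0.069 against ECtrl and 0.023 against the mean, and Fn1 at 0.13 against EfCtrl. With quantile normalisation Reck was at 0.032 against ECtrl and 0.0078 against the mean. With single libraries left out, Mmp14 ran from -0.022 to 0.35 against ECtrl and from -0.018 to 0.26 against EfCtrl. Timp1 ran from -0.28 to 0.17 against ECtrl, -0.20 to 0.26 against EfCtrl and -0.24 to 0.21 against the mean, with -0.25 to 0.22 for the permutation test's difference, and Timp3 from -0.18 to 0.082, -0.14 to 0.12 and -0.16 to 0.10. Reck ran from -0.24 to 0.0045 against ECtrl and Fn1 from -0.19 to 0.073 against EfCtrl. FPKM gives no depth for a single library, and the paper gives only an average number of aligned reads over the libraries. The precision of genes at a few FPKM, such as Adamts9 and Mmp15, was therefore taken from the spread of libraries alone.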
